A study of Danio rerio with 10 samples.

Results

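Genes of the Rab and vesicle fusion machinery were followed in the neutrophil messenger RNA of zebrafish (Danio rerio) embryos at 3 days post fertilization. They were chosen by symbol, as every listed gene whose name begins with rab, stx, snap, syt, sytl, vps or snx followed by a number, or with vamp, stxbp, nsf or napa, and 176 of 15335 listed genes qualified. The rule also named unc13 and munc, but no listed gene has a name that begins in this way. The comparison set 3 libraries of sorted neutrophils overexpressing the microRNA miR-199 against 2 libraries of sorted neutrophils overexpressing the vector control. Both kinds of fish were transgenic lines of the AB background with a GFP reporter. Transgene and line go together, so an effect of miR-199 cannot be told apart from other differences between the lines. Words such as fell and rose below describe the miR-199 against the vector libraries only. The labels name neither the promoter of the transgenes nor the number of founders or of fish per library, so p-values measure only the spread between these libraries, which may be technical. The samples of the study include no vector replicate 2, and the small RNA libraries among them are not analysed here.

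Rab proteins are small GTPases that mark each membrane of the cell and, when bound to GTP, recruit the motors, tethers and other effectors that bring a vesicle to its target. Fusion is then carried out by SNARE proteins, in which a VAMP on the vesicle pairs with a syntaxin and a SNAP-25 type partner on the target, guided by a Sec1/Munc18 protein. NSF and alpha-SNAP pull spent SNARE complexes apart, sorting nexins and retromer retrieve cargo from endosomes, and ESCRT complexes bud vesicles into endosomes. In mammalian neutrophils the same machinery releases granules and moves receptors and the oxidase to the surface and to phagosomes.

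Of the 176 genes, 58 encoded Rab GTPases and 6 encoded Rab effectors or regulators. A further 15 were syntaxins, 6 VAMPs, 6 SNAP-25 type SNAREs, 15 synaptotagmins or synaptotagmin-like proteins, 9 Sec1/Munc18 or other syntaxin-binding proteins and 4 NSF or alpha-SNAP genes. The endosomal genes comprised 30 sorting nexins, 5 retromer subunits, 8 ESCRT subunits and 10 subunits of tethering complexes. The remaining 4 genes matched by name, among them vps72, which encodes a chromatin protein, and nsfl1c, which encodes a cofactor of the ATPase p97. No exon of 173 of the genes overlapped another listed gene, whereas rab34a, rab7 and snx25 each shared exon bases with a gene on the opposite strand. Because the use of strand and the treatment of reads with several placements are not stated, such reads, and reads shared by near-identical paralogs, cannot be separated.

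The libraries held 12339928 to 17024134 counts. The genes of the machinery made up 1.12% to 1.25% of them, and 135 to 148 of the 176 were detected with at least 1 count in a library. All 5 libraries detected 120 of the genes, 36 were detected in some libraries and 20 had 0 counts in every library. Of those 20, 14 are genes whose exons the files list on more than 1 sequence, such as a chromosome and an alternate locus. At 0 were 14 of 19 genes listed in this way (73.7%) and 6 of the 157 others (3.82%), and over all listed genes 61.6% against 11.8%. A 0 of such a gene cannot be read as absent expression. How reads were assigned to such genes is not stated, so the levels of the 5 with counts (rab5b, rab7, rab8b, vps26b and vps37a) are uncertain. For the other 6, 0 counts allow up to 0.182 to 0.235 CPM per library. CPM is the number of counts per 1000000 counts of a library, scaled by the TMM method, which corrects for differences in composition between libraries. Sorted cells carried the neutrophil markers fixed for this work, with summed levels of 81330 and 88636 CPM in the vector and 50552 to 59869 CPM in the miR-199 libraries. Of 11 such markers tested, 5 (45.5%, beside 19.9% of all tested genes) were called lower and 0 higher in miR-199 neutrophils by edgeR. An unadjusted edgeR p under 0.05 was found for 8, beside 3281 of all 8897 tested genes, and DESeq2 called 8 in either direction. Of the 11, 9 had a log2 fold change below 0 and 2 above 0. The lowest was il1b at -3.59 (SE 0.40) and the highest cpa5 at 0.58 (SE 0.16), with edgeR adjusted p of 0.00678 and 0.0553. The gene cpa5 had 7567 and 8788 CPM in vector against 13774, 11384 and 11559 CPM in miR-199 libraries. The part of the summed difference in the results below was not tested, nor was its cause. Fewer cells of a type and less RNA per cell cannot be told apart in such samples. Markers of other cells had lower summed levels. For macrophages these were 14.4 and 15.99 CPM in vector against 15.6 to 33.6 CPM in miR-199 libraries. The highest macrophage marker was cd74a, at 14.4 and 13.7 CPM against 31.3, 31.5 and 14.8 CPM. For red blood cells the sums were 4.61 and 4.91 CPM against 6.64 to 20.2 CPM. They were 5.57 and 5.78 CPM against 2.66 to 7.31 CPM for neurons, and 16.96 and 19.8 CPM against 23.24 to 60.0 CPM for muscle. For keratinocytes they were 366 and 375 CPM against 219 to 464 CPM. The highest keratinocyte markers in vector were anxa1a at 257 and 275 CPM and krt8 at 84.4 and 78.6 CPM. At 0 in all 5 libraries were 4 of 8 listed macrophage, 5 of 8 red blood cell, 10 of 24 neuron, 5 of 16 muscle and 6 of 19 keratinocyte markers. Whether those at 0 are listed on more than 1 sequence was not counted. Their part in the results was not tested.

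Levels within the control cells were compared per length, as CPM per kb of listed exons, over the 2 vector libraries. The most abundant transcript was stx11a, the syntaxin 11 gene whose human counterpart is needed for degranulation of cytotoxic lymphocytes, at 552 ± 35.1 CPM per kb (SD, n = 2), a level above 98.5% of all detected genes. It was followed by the recycling-endosome Rab rab11ba at 471 ± 33.0 CPM per kb (SD, n = 2). The granule and endosome VAMP vamp8 stood at 402 ± 21.6 CPM per kb (SD, n = 2), and the early-endosome Rab rab5c at 323 ± 16.6 CPM per kb (SD, n = 2). The 10 highest were completed by snx5 at 227, rab1ab at 225, rab27a at 208, vps28 at 199, vps4b at 181 and rab10 at 180.0 CPM per kb. These 10 genes held 44.2% of the level summed over the machinery, and 7 of them were also among the 10 highest when CPM was not divided by length. In all, 21 genes lay above 100 CPM per kb, 62 between 10 and 100, and 30 between 1 and 10.

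**Figure D1:**
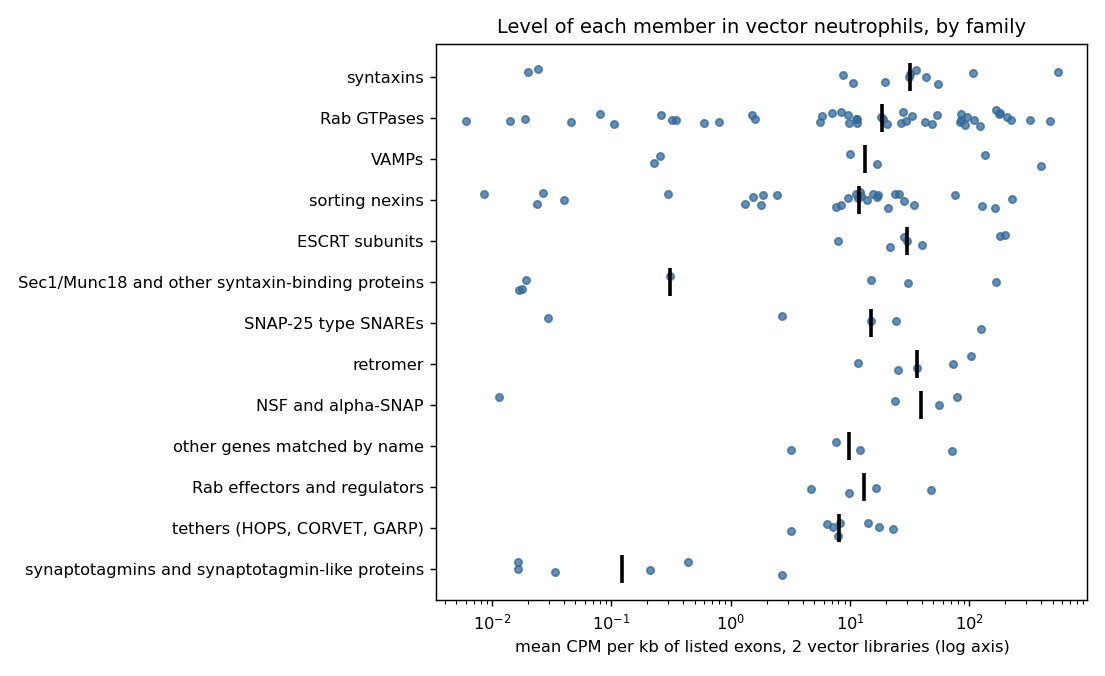
Each point is the mean level of 1 gene over the 2 vector libraries, in CPM per kb of listed exons on a log axis, by family; black bars are family medians over genes with a count, and genes at 0 in both vector libraries are not drawn. The highest syntaxin (stx11a), Rab (rab11ba) and VAMP (vamp8) all lie above 400 CPM per kb, while the synaptotagmins all lie below 3 CPM per kb.

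Genes of neurotransmitter release were sparse at this depth. The synaptic SNARE genes snap25a and snap25b had at most 5 counts in any library, and vamp2 had at most 9. The Munc18-1 genes stxbp1a and stxbp1b had at most 2 counts. Some synaptotagmins sense calcium, and some synaptotagmin-like proteins bind Rabs at the vesicle surface. Among the 15 synaptotagmin and synaptotagmin-like genes only syt14b reached 10 counts in every vector library, at 2.68 CPM per kb. The Rab27 partner sytl4 had 17 and 1 counts against 7, 8 and 8 counts, and sytl1 had 3 and 0 counts against 0, 12 and 0 counts, in the vector and the miR-199 libraries. A few genes of this kind had counts mainly in 1 or 2 of the miR-199 libraries: syt9b had 0 and 1 counts against 6, 308 and 1 counts, and syt5b had 0 and 0 counts against 1, 119 and 93 counts. The orphan Rab gene rab36 had 0 and 0 counts against 97, 6 and 1 counts. These 3 genes were each high in a different set of miR-199 libraries and had at most 1 count in either vector library. Of the 3 synaptotagmins tested between the groups none was called by edgeR and 1 had an unadjusted p under 0.05, beside 3281 of all 8897 tested genes. DESeq2 called syt5b, and also syt9b, which had not passed the filter for the edgeR test. The lowest detected genes of their families in vector were rab8b (listed on 3 sequences), the syntaxin gene stx11b.1, nsfa and the sorting nexin snx33, each with a single count over both vector libraries.

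Zebrafish carry many of these genes in duplicate, and 26 pairs of duplicates were among them. In 18 pairs at least 1 gene reached 10 counts in a library, and in 10 of these a single gene held over 90% of the pair's level per length in the vector libraries. Thus nsfb, rab3db, rab6bb, rab11fip4b, stx11a and snx18a accounted for over 99% of their pairs. The 10 include rab18b, whose partner rab18a is listed on 2 sequences and at 0, so that its share cannot be read as expression. The granule Rab rab3db, for instance, had 2319 and 1905 counts against 5138, 5141 and 3197 counts, where rab3da had 3 and 0 counts against 4, 4 and 0 counts. Both genes were used in the rab5aa and rab5ab pair, where rab5aa held 61.5% and 62.1% in vector replicates 1 and 3, against 66.9%, 68.7% and 61.1% in miR-199 replicates 1, 2 and 3. These shares overlapped between the groups.

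**Figure D2:**
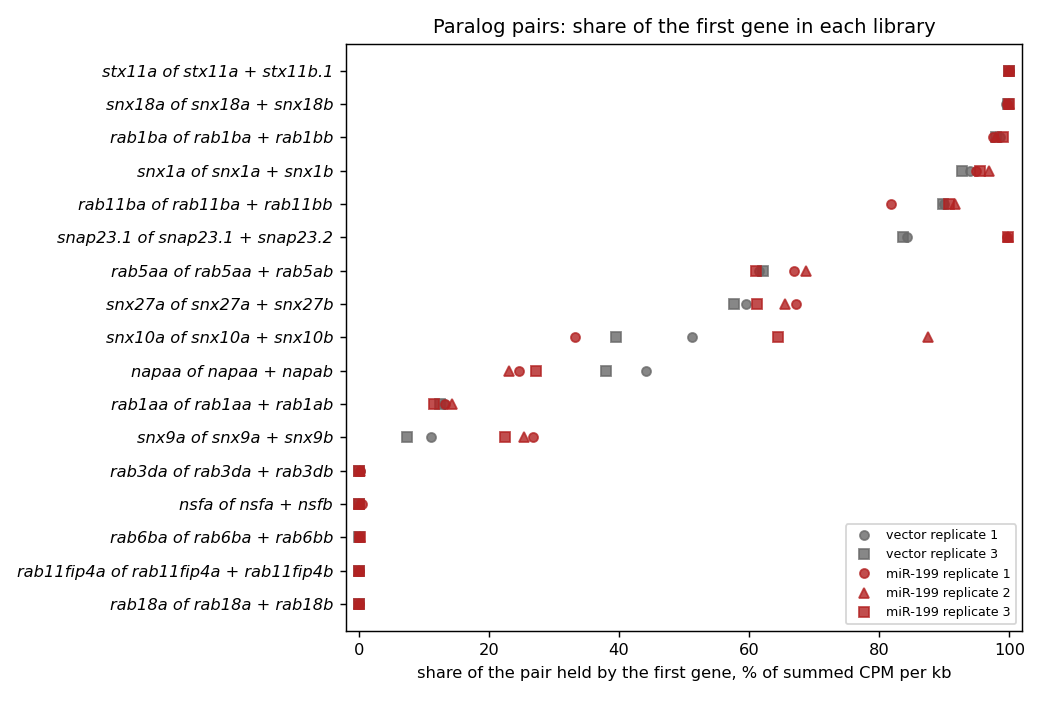
Share of each pair's summed CPM per kb held by the first gene of the pair, in percent, for the 17 pairs with a vector value and at least 10 counts for 1 gene in a library; grey symbols are vector and red symbols miR-199 libraries. The vector and miR-199 symbols lie apart for snap23.1, napaa and snx9a and, more narrowly, for snx27a and snx1a. They overlap for snx10a, rab5aa and rab11ba, among others.

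The overexpression of miR-199 was examined with edgeR's quasi-likelihood test between the 3 miR-199 and the 2 vector libraries, with Benjamini-Hochberg adjustment over all genes tested and a call at an adjusted p under 0.05. Of the 176 genes, 118 passed the low-count filter and were tested, 38 had counts but did not pass it and 20 had none. Among the 38 were syt9b and rab36, each with most of its counts in 1 miR-199 library. Called were 21 of the 118, or 17.8%, beside 19.9% of all tested genes, so the share was near the background. The calls fell into 15 lower and 6 higher, that is 12.7% of tested genes of the machinery lower and 5.08% higher, beside 10.4% and 9.49% of all tested genes. With library totals in place of TMM factors, a scaling that moved the log2 fold change of all tested genes by a median of 0.13, the split was 11 lower and 9 higher. With the same scaling the split over all tested genes was 674 lower and 1139 higher. The median log2 fold change was -0.13 over the tested genes of the machinery and 0.019 over all tested genes. Below 0 were 70 of the 118, beside 4361 of all 8897 tested genes. An unadjusted edgeR p under 0.05 was found for 38 of the 118, beside 3281 of the 8897. Vector and miR-199 values were fully separate in each of the 21 called genes, which held for 72 of the 118 (61.0%) and for 57.3% of all tested genes. Differences of at least 2-fold were fitted for 10 of the 21, 6 lower and 4 higher. The like share over all called genes was not counted. Among the 10 most abundant genes of the machinery 5 were called, all lower: rab11ba, vamp8, snx5, rab1ab and vps28. Of all tested genes 19.9% were called and 10.4% were called lower. The share among other genes of like abundance was not counted. The ranking used the same 2 vector libraries that are the baseline of the comparison, so the direction of these calls is not independent of it.

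The number of calls depended on single libraries. Without miR-199 replicate 2 only 8 genes were called by edgeR, namely napaa, rab3db, rab9a, snap23.2, snx10b, snx5, stx4 and vamp8. With 1 vector library the test made no call among these genes: without vector replicate 1 there were 0, with 23 at an unadjusted p under 0.05, and without vector replicate 3 there were 0, with 16 at that level. Among all genes the same reductions left 926, 2 and 0 calls. By DESeq2, with all 5 libraries, 35 of 127 tested genes of the machinery were called and all 21 were among them. Calls rose among all genes too, with 2622 by DESeq2 and 1772 by edgeR. The number of all genes that DESeq2 tested was not counted, so DESeq2 calls here have no background share beside them.

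**Figure D3:**
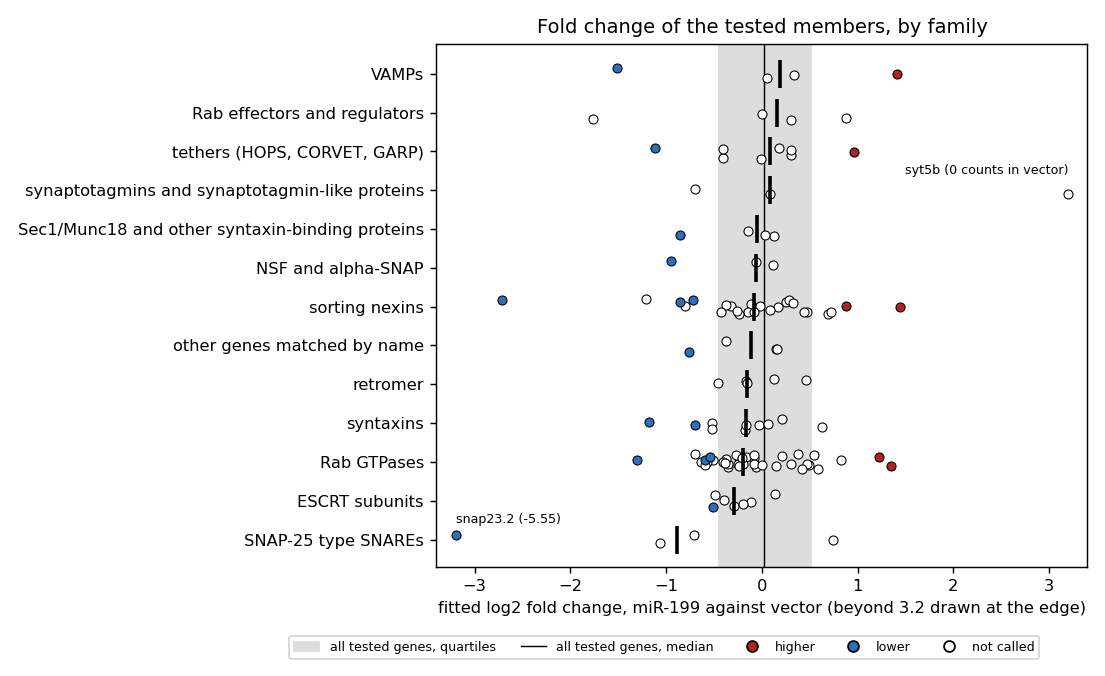
Fitted log2 fold change of each of the 118 tested genes, miR-199 against vector, by family; filled points were called, black bars are family medians, and the grey band spans the quartiles of all tested genes (-0.45 to 0.51). Calls lie on both sides of 0 among Rabs, VAMPs, sorting nexins and tethers, while the SNAP-25 type gene snap23.2 lies beyond the left edge at -5.55 and syt5b, with no vector counts, is drawn at the right edge.

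Genes known for regulated granule release in mammalian leukocytes were described next. A list of such genes had 16 listed members, of which 10 were tested. By edgeR, 4 (40.0%, beside 19.9% of all tested genes) were called lower and 0 higher. The list does not hold rab3db, which was called higher. It was chosen with earlier results of these data known, so these counts are a description only. An unadjusted edgeR p under 0.05 was found for 5 of the 10, beside 3281 of all 8897 tested genes, and DESeq2 called 5. The median log2 fold change of the 10 was -0.43, beside 0.019 over all tested genes. Of the 6 not tested, stx6 (listed on 2 sequences) and stx11b.2 had 0 counts in every library and stx11b.1 had 1 and 0 counts against 0, 0 and 0 counts. The vesicle SNARE vamp8 (chromosome 5, 28271412 to 28279361, plus strand, GRCz11) had 704 and 759 CPM in vector replicates 1 and 3 against 196, 349 and 226 CPM in miR-199 replicates 1, 2 and 3. Every miR-199 library lay below both vector libraries, and vamp8 fell 2.85-fold, a fitted log2 change of -1.51 (SE 0.25) at an adjusted p of 0.0154 by edgeR. Its paralog vamp3, a VAMP of recycling endosomes, had 164 and 174 CPM against 171, 171 and 182 CPM, a difference of 0.051 (SE 0.11) on the log2 scale at an adjusted p of 0.778, and the groups overlapped. The Munc18-2 gene stxbp2, whose product holds syntaxin 11 and is required with it for granule release in human cytotoxic cells, had 411 and 428 CPM against 202, 218 and 278 CPM. It fell 1.80-fold, a fitted log2 change of -0.85 (SE 0.17) at an adjusted p of 0.0217 by edgeR, a call lost without miR-199 replicate 2 at 0.0659. The transcript of its partner stx11a was spread from 531 to 871 CPM over the miR-199 libraries, around 714 and 781 CPM in vector, and differed by -0.029 (SE 0.23) on the log2 scale at an adjusted p of 0.94. The sign of that difference turned to 0.10 with library totals and 0.18 without miR-199 replicate 1.

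The Rab that docks granules at the plasma membrane in mammalian neutrophils, rab27a (chromosome 18, 2228737 to 2266587, plus strand), had 314 and 301 CPM in vector replicates 1 and 3 against 136, 189 and 243 CPM in miR-199 replicates 1, 2 and 3. All 3 miR-199 values were below both vector values, but they differed among themselves, and at a fitted log2 change of -0.70 (SE 0.24) the adjusted p by edgeR was 0.089. It was 0.0335 without miR-199 replicate 3 and 0.035 by DESeq2. By edgeR it was 0.0665 without miR-199 replicate 1, 0.185 without replicate 2 and 0.134 with library totals. The other granule Rab, rab3db (chromosome 3, 14512670 to 14537562, plus strand), went the other way, with 140.5 and 139 CPM against 338, 403 and 236 CPM. It rose 2.33-fold, a fitted log2 change of 1.22 (SE 0.24) at an adjusted p of 0.022 by edgeR. On the target membrane, the plasma membrane syntaxin stx4 had 104 and 105 CPM against 60.4, 66.8 and 66.4 CPM and fell 1.62-fold, with -0.69 (SE 0.12) on the log2 scale and an edgeR adjusted p of 0.0165. The related stx3a, at 72.3 and 81.9 CPM against 62.7, 71.8 and 71.8 CPM, differed by -0.17 (SE 0.14) at an adjusted p of 0.431, and stxbp3, a Munc18 protein that binds syntaxin 4, by 0.13 (SE 0.15) at an adjusted p of 0.581.

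**Figure D4:**
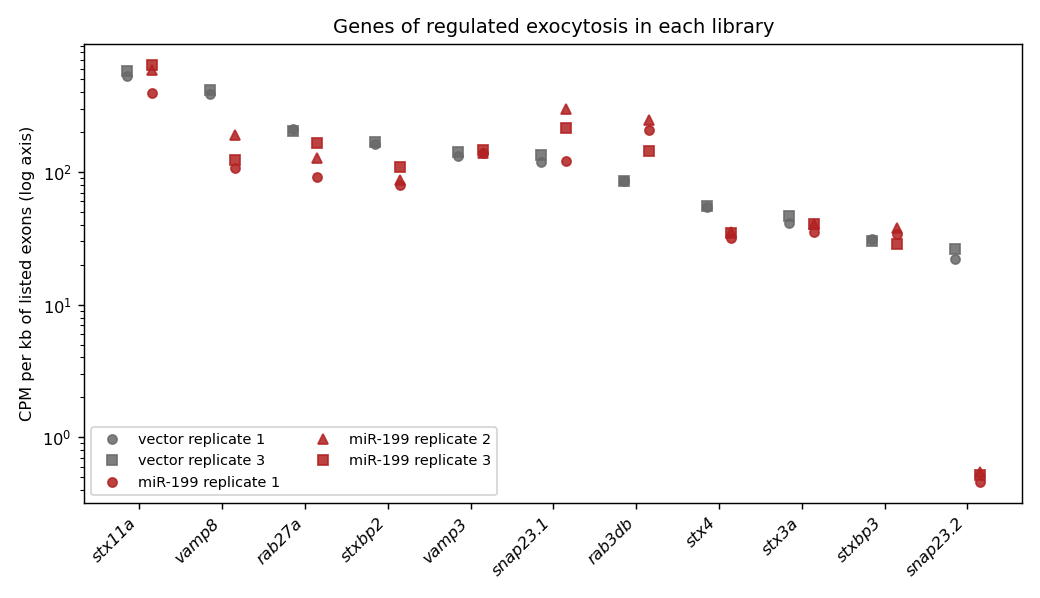
Level of 10 tested genes of the granule release list and of rab3db in each library, in CPM per kb of listed exons on a log axis; grey symbols are vector and red symbols miR-199 libraries. The red symbols of vamp8, stxbp2, stx4 and snap23.2 lie below the grey ones, as do those of rab27a and, narrowly, stx3a, which edgeR did not call. Those of rab3db lie above, and those of stx11a, vamp3, snap23.1 and stxbp3 overlap the grey ones.

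SNAP-23 is the widely expressed partner of these SNAREs at the plasma membrane, and its 2 zebrafish genes lie next to each other on the plus strand of chromosome 17, snap23.1 at 33415344 to 33430684 and snap23.2 at 33433566 to 33441053 (GRCz11). The second had 314 and 307 counts against 6, 6 and 6 counts in the vector and the miR-199 libraries, that is 19.0 and 22.5 CPM against 0.395, 0.471 and 0.443 CPM. It was near the limit of detection in every miR-199 library and fell 46.8-fold, a fitted log2 change of -5.55 (SE 0.28) at an adjusted p of 0.00217 by edgeR. The neighbour snap23.1 had 194 and 219.9 CPM against 198, 486 and 355 CPM; replicate 1 lay between the vector libraries and replicates 2 and 3 above both. Its log2 fold change was 0.74 (SE 0.36) at an adjusted p of 0.19 by edgeR, and it was called higher without miR-199 replicate 1, at 1.04 and 0.0118. Without miR-199 replicate 2 its adjusted p was 0.383, and without replicate 3 it was 0.27. Of the pair's summed level per length, snap23.1 held 84.2% and 83.7% in vector replicates 1 and 3, against 99.6%, 99.8% and 99.8% in miR-199 replicates 1, 2 and 3. How reads that match both genes were assigned is not stated. A further pair of neighbours, vamp8 and vamp5, lies on the plus strand of chromosome 5 with 17848 bases between them. The gene vamp5 (28297210 to 28307473), whose mammalian counterpart is best known from muscle, had 12.97 and 15.6 CPM against 48.8, 36.2 and 28.5 CPM and rose 2.65-fold, a fitted log2 change of 1.41 (SE 0.28) at an adjusted p of 0.022 by edgeR, or 0.0585 without miR-199 replicate 2. The summed level of muscle markers was 16.96 and 19.8 CPM in vector against 23.24, 26.2 and 60.0 CPM in miR-199 replicates 1, 2 and 3. It was thus above vector in all 3, and highest in replicate 3, the miR-199 library where vamp5 was lowest. Of 8 tested muscle markers 1 was called higher (12.5%, beside 9.49% of all tested genes) and 0 lower. The part of muscle RNA in the vamp5 result was not tested.

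Among the other syntaxins, stx2a, which acts at the plasma membrane, had 50.7 and 54.4 CPM against 13.9, 28.6 and 27.4 CPM and fell 2.26-fold. Its log2 fold change was -1.18 (SE 0.32) at an adjusted p of 0.0488, and the call was lost without miR-199 replicate 2 at 0.0764, without replicate 3 at 0.0625 and with library totals at 0.0622. The 8 other tested syntaxins were not called by edgeR. The largest differences among these were 0.63 (SE 0.21) for the late-endosome gene stx8, at an adjusted p of 0.0793, and -0.52 (SE 0.19) for stx5al, with 0.106. After fusion, SNARE complexes are opened by NSF with alpha-SNAP. Of the 2 alpha-SNAP genes, napaa had 64.6 and 56.8 CPM against 30.5, 28.5 and 35.3 CPM and fell 1.93-fold, with -0.95 (SE 0.16) on the log2 scale and an edgeR adjusted p of 0.0164. The duplicate napab had 117 and 133 CPM against 134, 136 and 135 CPM and differed by 0.11 (SE 0.12), at an adjusted p of 0.538. The share of napaa in the pair was 44.2% and 38.0% in vector replicates 1 and 3, against 24.6%, 23.13% and 27.2% in miR-199 replicates 1, 2 and 3, with no overlap between the groups. The NSF gene nsfb differed by -0.062 (SE 0.15) on the log2 scale, at an adjusted p of 0.792.

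Among 37 tested Rab GTPases 5 (13.5%, beside 19.9% of all tested genes) were called, 3 lower and 2 higher, and the median log2 fold change was -0.20. The largest fall was that of rab9a (chromosome 9, 54686685 to 54704498, plus strand), which guides transport from late endosomes to the Golgi and had 91.1 and 88.9 CPM in vector replicates 1 and 3 against 35.8, 31.5 and 42.2 CPM in miR-199 replicates 1, 2 and 3. It fell 2.47-fold, a fitted log2 change of -1.30 (SE 0.16) at an adjusted p of 0.00862 by edgeR. The most abundant Rab, rab11ba (chromosome 22, 17499958 to 17506843, plus strand), had 784 and 865 CPM against 491, 607 and 539 CPM and fell 1.51-fold, with -0.60 (SE 0.14) on the log2 scale and an edgeR adjusted p of 0.0359. Its duplicate rab11bb, at a level per length 8.84 times lower in vector, had 59.0 and 66.2 CPM against 73.1, 37.2 and 36.9 CPM, where miR-199 replicate 1 was above and the others below both vector libraries. The Rab1 gene rab1ab, which acts between the endoplasmic reticulum and the Golgi, had 392 and 411 CPM against 255, 267 and 306 CPM and fell 1.45-fold, with -0.54 (SE 0.13) on the log2 scale and an edgeR adjusted p of 0.0369. Both calls were lost under alternatives: without miR-199 replicate 2 the adjusted p by edgeR was 0.0526 for rab11ba and 0.0909 for rab1ab, and with library totals 0.0571 and 0.0663. Without miR-199 replicate 3 it was 0.058 for rab11ba. Besides rab3db, the other rise was that of rab28, a single listed exon on an unplaced scaffold, with 152 and 104 counts against 442, 282 and 180 counts and a log2 fold change of 1.35 (SE 0.37). Its edgeR adjusted p of 0.0496 was just under the threshold and became 0.111 without miR-199 replicate 2.

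Among Rabs that act at early endosomes and phagosomes, rab5c, rab5aa, rab14 and rab32a were not called by edgeR or by DESeq2. The gene rab5c had 700.2 and 753 CPM against 603, 632 and 607 CPM, with all 3 miR-199 libraries slightly below vector and a log2 fold change of -0.24 (SE 0.12), edgeR adjusted p 0.19. For rab5aa the difference was 0.0046 (SE 0.13) at an adjusted p of 0.983, for rab14 -0.17 (SE 0.12) with 0.342, and for rab32a -0.078 (SE 0.11) with 0.656. The early-endosome Rab rab4a had 29.6 and 32.0 CPM against 21.1, 19.7 and 21.2 CPM, with all 3 miR-199 libraries below vector. Its log2 fold change was -0.57 (SE 0.16) and its adjusted p 0.055 by edgeR, and it was called lower by DESeq2 and by edgeR with a mean of at least 5 CPM. The late-endosome gene rab7, listed on 3 sequences and with exons that overlap hmces on the opposite strand, had 31.9 and 36.4 CPM against 25.7, 20.6 and 21.8 CPM, a log2 fold change of -0.59 (SE 0.18) and an edgeR adjusted p of 0.0677; it was called by DESeq2 and without miR-199 replicate 1. Secretory rab10 differed by -0.088 (SE 0.15) on the log2 scale, edgeR adjusted p 0.711, with a sign that turned to 0.046 with library totals.

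None of the 4 tested Rab effectors and regulators was called by edgeR. An unadjusted edgeR p under 0.05 was found for 2, beside 3281 of all 8897 tested genes, and DESeq2 called 2. The Rab11 effector rab11fip4b had 88.3 and 101 CPM against 110.2, 248 and 164 CPM, highest in miR-199 replicate 2, a fitted log2 change of 0.88 (SE 0.33) at an adjusted p of 0.113 by edgeR. This was 0.0142 without miR-199 replicate 1, 0.183 without replicate 2 and 0.155 without replicate 3. The exchange factor gene rab3ip, which activates Rab8 in mammals, had 160 and 122 counts against 26, 20 and 67 counts. Its log2 fold change was -1.76 (SE 0.54) at an edgeR adjusted p of 0.0687. This was 0.0723 without miR-199 replicate 1, 0.143 without replicate 2 and 0.0151 without replicate 3. The 2 subunits of the Rab3 GTPase-activating complex, rab3gap1 and rab3gap2, differed by 0.003 (SE 0.22) and 0.31 (SE 0.30) on the log2 scale, with edgeR adjusted p of 0.993 and 0.493.

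**Figure D5:**
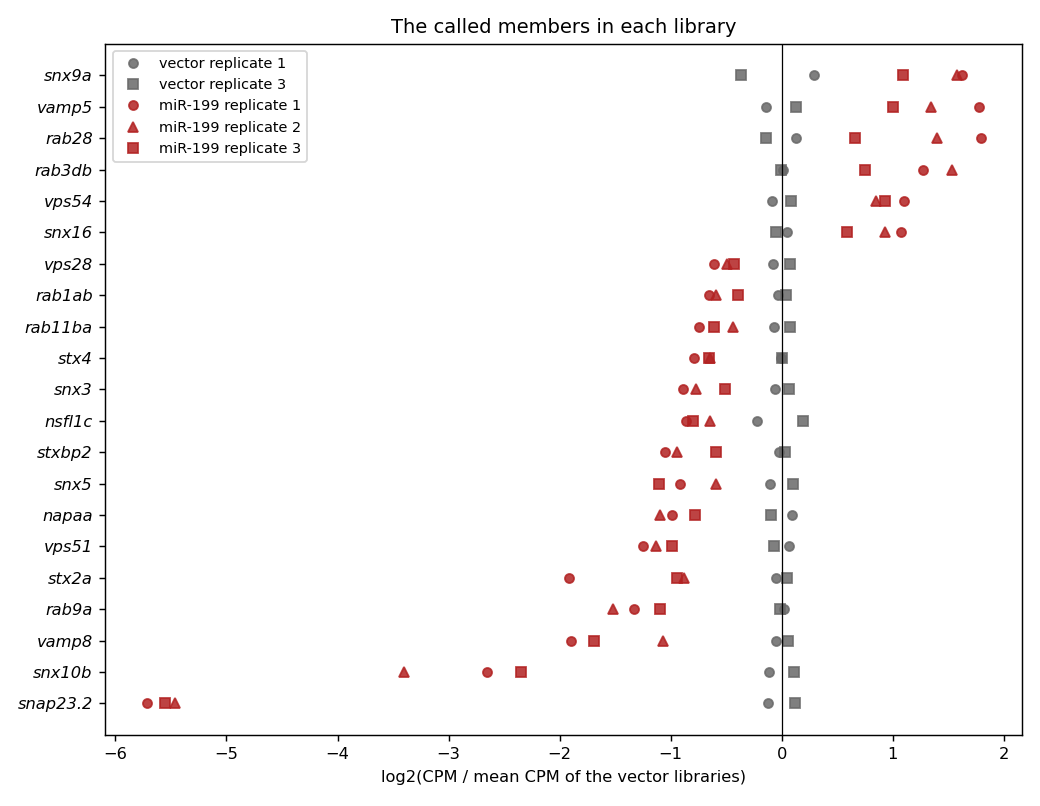
The 21 called genes in each library, as log2 of CPM over the mean CPM of the vector libraries; grey symbols are vector and red symbols miR-199 libraries, and 0 is the vector mean. The 6 genes at the top are higher and the 15 below are lower in all 3 miR-199 libraries, and the lowest is snap23.2.

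At endosomes, 25 sorting nexins were tested, of which 3 were called lower and 2 higher (20.0%, beside 19.9% of all tested genes), with a median log2 fold change of -0.079. The most abundant of them, snx5, which bends tubules that return receptors from endosomes, had 533 and 614 CPM in vector replicates 1 and 3 against 304, 381 and 266 CPM in miR-199 replicates 1, 2 and 3 and fell 1.81-fold, a fitted log2 change of -0.86 (SE 0.18) at an adjusted p of 0.027 by edgeR. Its usual partner snx1a was not called, with -0.11 (SE 0.12) at an adjusted p of 0.536. The retromer adaptor snx3 had 152 and 165 CPM against 85.6, 92.7 and 111 CPM and fell 1.64-fold, with -0.72 (SE 0.15) and an edgeR adjusted p of 0.0261, a call lost without miR-199 replicate 2 at 0.0705. The largest fall was that of snx10b, at 63 and 61 counts against 10, 5 and 11 counts, a fitted log2 change of -2.72 (SE 0.48) at an adjusted p of 0.0173 by edgeR. Its duplicate snx10a had 40 and 24 counts against 3, 21 and 12 counts and was not called, with -1.21 (SE 0.81) and 0.328. Higher were snx16, with 26.4 and 24.7 CPM against 53.6, 48.6 and 38.3 CPM, a log2 fold change of 0.87 (SE 0.20) and an edgeR adjusted p of 0.0315, and snx9a, with 143 and 75 counts against 330, 269 and 204 counts, 1.44 (SE 0.31) and 0.0273. Both calls were lost without miR-199 replicate 2, at 0.0773 and 0.0704. SNX9 binds dynamin during endocytosis, and the duplicate snx9b, at a level per length 9.79 times higher in vector, differed by -0.26 (SE 0.14) at an adjusted p of 0.228. The share of snx9a in that pair was 11.1% and 7.36% in vector replicates 1 and 3, against 26.7%, 25.4% and 22.4% in miR-199 replicates 1, 2 and 3, so that the groups did not overlap.

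None of the 5 retromer subunits was called by edgeR or by DESeq2. By edgeR 1 had an unadjusted p under 0.05, beside 3281 of all 8897 tested genes. The core subunit vps35 differed by -0.16 (SE 0.14) on the log2 scale at an adjusted p of 0.477, vps29 by -0.17 (SE 0.14) with 0.448, and vps26b, listed on 2 sequences, by -0.46 (SE 0.15) with 0.0739. The lowest per length in vector was vps26a, with 26.0 and 29.8 CPM against 44.7, 37.9 and 32.6 CPM, 0.46 (SE 0.20) and 0.146. Of 7 tested ESCRT subunits 1 was called (14.3%, beside 19.9% of all tested genes). Below 0 were 6 of the 7, beside 4361 of all 8897 tested genes. The ESCRT-I gene vps28 (chromosome 19, 46222430 to 46238626, plus strand) had 289 and 320.3 CPM against 199, 217 and 226 CPM, a 1.42-fold fall and a fitted log2 change of -0.51 (SE 0.12) at an adjusted p of 0.0376 by edgeR. This call was lost at 0.0521 and 0.0802 without miR-199 replicates 1 and 2, and at 0.067 with library totals. The ATPase gene vps4b, which dismantles ESCRT-III, had 469.8 and 494 CPM against 310.5, 333 and 383 CPM. It narrowly missed the threshold, with -0.49 (SE 0.14) and an edgeR adjusted p of 0.0524. This was 0.0298 without miR-199 replicate 3 and 0.0119 by DESeq2. By edgeR it was 0.0696 without miR-199 replicate 1, 0.118 without replicate 2 and 0.0992 with library totals. The lowest detected ESCRT gene per length in vector was vps37a of ESCRT-I, whose length sums exons listed on 2 sequences. It had 29.0 and 34.2 CPM against 29.0, 29.9 and 45.7 CPM and differed by 0.14 (SE 0.25) with 0.719. The vps4b paralog vps4a differed by -0.19 (SE 0.15) at an adjusted p of 0.4.

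Among 8 tested subunits of tethering complexes, those shared by HOPS and CORVET, which tether late and early endosomes, were not called: vps11, vps16 and vps18 differed by 0.30 (SE 0.15), -0.41 (SE 0.23) and 0.18 (SE 0.17) on the log2 scale, with edgeR adjusted p of 0.208, 0.25 and 0.482. Both calls (25% of the 8, beside 19.9% of all tested genes) were in the GARP complex, which tethers vesicles from endosomes at the Golgi. They had opposite signs. The gene vps51, listed on an alternate locus of chromosome 10, had 18.8 and 17.2 CPM against 7.57, 8.24 and 9.07 CPM and fell 2.17-fold, with -1.12 (SE 0.21) and an edgeR adjusted p of 0.0192. The gene vps54 (chromosome 1, 55011549 to 55044256, minus strand) had 9.75 and 10.97 CPM against 22.2, 18.6 and 19.8 CPM and rose 1.95-fold, with 0.96 (SE 0.20) and an edgeR adjusted p of 0.027. Without miR-199 replicate 2 these adjusted p were 0.0512 and 0.0518. A further GARP gene, vps53, is listed on 2 sequences and at 0 counts in all 5 libraries, which cannot be read as absent expression. Of the 4 genes matched by name alone, nsfl1c had 113 and 151 CPM against 72.3, 84.3 and 75.7 CPM and fell 1.70-fold, with -0.77 (SE 0.16) and an edgeR adjusted p of 0.0274, or 0.0562 without miR-199 replicate 2. The lipid transfer gene vps13a, the lowest of the 4 per length in vector, had 33.6 and 31.2 CPM against 32.7, 20.5 and 54.6 CPM, and the groups overlapped.

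Genes that work with this machinery but carry other names were counted from lists of such genes, also chosen with earlier results of these data known. Of 13 tested further SNARE and SNARE-recycling genes 1 was called, the ER to Golgi SNARE sec22bb, higher by 0.68 (SE 0.18) on the log2 scale with an edgeR adjusted p of 0.0435. Of 30 tested Rab regulators 2 were called, both higher: usp6nl, a GTPase-activating protein that acts on Rab5 in mammals, by 1.05 (SE 0.26) at an adjusted p of 0.0385, and dennd6aa by 0.95 (SE 0.24) with 0.0398. None of 9 tested exocyst genes was called by edgeR, where 2 had an unadjusted p under 0.05, beside 3281 of all 8897 tested genes. DESeq2 called 1. Of 31 tested genes of ESCRT and related endosomal sorting complexes 6 were called, 5 lower and 1 higher. Below 0 were 25 of the 31, beside 4361 of all 8897 tested genes, and the median of the 31 was -0.25. The largest fall among these was that of chmp5b, an ESCRT-III gene, at -1.15 (SE 0.21) with an adjusted p of 0.0193, and the rise was that of commd1 at 0.53 (SE 0.14) with 0.0450. The shares called, 7.69%, 6.67%, 0% and 19.4% for the 4 lists, stand beside 19.9% of all tested genes.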

How the data were processed

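Messenger RNA of sorted neutrophils was measured in 5 libraries whose complementary DNA came from a SMART-Seq v4 low-input kit, per the labels' protocols. The authors deposited raw read counts per gene symbol with no normalization. STAR 2.5 and featureCounts of Subread 1.5.1 are named in the submitters' processing notes, with the build GRCz11, and the files have the featureCounts layout. Strand and the handling of reads with several placements are not given in the sources used here. The members and lists were chosen with earlier results of these data known. The groups were compared in R 4.3.3 with edgeR 4.0.16 (quasi-likelihood test, two-sided, TMM factors, filterByExpr by group, 8897 genes tested), checked on simulated data. The standard error is |log2 fold change|/sqrt(F). CPM uses TMM-scaled totals of tested genes, and 0 counts allow up to 3 counts. Such limits cover counting error only. Alternatives were median-of-ratios factors, library totals, other filters, DESeq2 1.42.0, each library left out and a replicate block. All called genes, the granule release list, the 10 highest levels and family extremes are named by rule; others were added after their values were seen. Sites for miR-199 in untranslated regions and the small RNA table are not analysed here. Figures were drawn with matplotlib 3.10.9.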

Additional observations from a re-analysis of the deposited data

How the results depend on the processing

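With median-of-ratios factors, without a low-count filter or with a mean of at least 5 CPM, 21, 22 and 21 genes of the machinery were called, and 21, 21 and 20 of these were calls of the main comparison. DESeq2 called 35 (13 higher), and 2622 genes in all (1360 higher). Leaving out 1 library gave 0 to 30 calls (0 to 10 higher, 0 to 21 lower) among these genes, against 0 to 2195 (0 to 1083 higher, 0 to 1112 lower) in all; the lone vector library is then assumed to vary like the others. The median log2 fold change of the tested genes was 0.0033 with library totals, where all tested genes had 0.15, and -0.17 to -0.099 with 1 library left out; the cause was not tested. The replicate block called 2 genes (0 higher, 2 lower, namely vamp8 and snap23.2) with 31 at an unadjusted p under 0.05, and 110 in all (38 higher, 72 lower). With no vector replicate 2 in the fit, miR-199 replicate 2 adds nothing to the blocked comparison. The block thus rests on fewer libraries than the main test, and its lower number of calls cannot be compared directly. Same-numbered libraries deviated in opposite directions from their group means (r of -0.22 and -0.18 across genes). The deviations of 2 vector libraries mirror each other, so these values cannot decide whether the numbers pair the samples. With library totals 11 of the 118 signs turned, and with the other alternatives 0 to 8, in 0 called genes. Among genes named by rule these were rab10 to 0.046, 0.013 and 0.017 (library totals, without vector replicate 3, without miR-199 replicate 1), stx11a to 0.10, 0.044 and 0.18 (the same 3 settings), syt14b to -0.42, -0.062, -0.012 and -0.40 (replicate block, without vector replicate 3, miR-199 replicate 2 or 3), and without miR-199 replicate 3 vps13a to -0.28 and vps37a to -0.10. With 1 library left out the highest values were 0.54 for syt14b, 0.43 for vps13a and 0.28 for vps37a. Depth limits the 6 genes at 0 that are listed on 1 sequence to 0.182 to 0.235 CPM.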
